A study of Mus musculus with 72 samples.

Results

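Liver RNA of irradiated and control mice was compared 48 h after whole body irradiation with 8 Gy, and the comparison rests on 6 mRNA arrays of the 72 arrays in the series. All mice were female C57BL/6 J of 6 to 8 weeks. The 3 irradiated mice (numbers 5, 15 and 25) received a single X-ray dose of 8 Gy inside a plastic container, and the 3 controls (numbers 1, 11 and 21) were sham irradiated, at 0 Gy, in a container of the same type. The arrays were chosen by their labels, which give organ, dose and time, and the series also holds liver of mice given other doses, lung of the same doses and miRNA arrays. RNA came from powdered whole tissue and each array is 1 mouse, so that values mix all cell types of the liver and the blood within it.

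Ionizing radiation breaks DNA, and the damage stabilizes p53, a transcription factor. Its targets include *Cdkn1a*, whose product p21 blocks cyclin-dependent kinases and halts the cell cycle, and *Mdm2*, whose product marks p53 for degradation. Hepatocytes of the adult liver divide rarely, while lymphocytes and the blood-forming cells of the bone marrow are among the most radiation-sensitive cells of the body. The liver also makes most plasma proteins, including the acute phase proteins that rise during inflammation, and carries out fat synthesis, fat oxidation and the breakdown of drugs.

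Values are log2 normalized spot intensities, and a fold change is the difference between the group means on this scale. A probe is described as called, and its gene as higher or lower, where the log2 fold change exceeded 1 in either direction and limma's Benjamini-Hochberg adjusted p was below 0.05, with n = 3 mice a dose and the spread estimated from all 18 liver arrays. A gene listed below is represented by its brightest tested probe, and levels of different probes are not compared. Between 46.24% and 53.99% of the spots were well above background on the 6 arrays and none was saturated. Spots flagged as outliers numbered 128 to 157 on the control arrays and 288 to 333 on the 8 Gy arrays. Correlations over probes were 0.990 to 0.992 between control mice, 0.979 to 0.982 between 8 Gy mice and 0.978 to 0.981 between a control and an 8 Gy mouse. The labels do not say whether mice of a dose were irradiated or housed together, so p values measure the spread between these mice only. All control arrays lay on slide 1 and all 8 Gy arrays on slide 2, so that within these 6 arrays slide and dose cannot be told apart. A model with slide as a term can be fitted over the 18 liver arrays, because the 2 Gy mice lay on both slides. The calls that it ended are given with each group of genes. Its step from slide 1 to slide 2 rests on 1 array, that of 2 Gy mouse 23 on slide 2, set against 2 Gy mice 3 and 13 on slide 1. Whether a call is lost or kept in that model therefore depends on that array. Its median deposited series value was 0.057, against 0.072 and 0.073 for 2 Gy mice 3 and 13. The controls had 0.055 to 0.059 and the 8 Gy mice 0.073 to 0.076. The part of these array differences in the slide term was not tested.

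Levels of 13 hepatocyte genes were compared between the doses, among them *Alb*, which encodes serum albumin, and *Apoa1*, *Cps1* and *Ahsg*. None was called. Their log2 fold changes lay between -0.29 and 0.30 with a median of 0.02, and the summed level of the list was 21.59 to 21.62 in the controls and 21.57 to 21.65 at 8 Gy. Of the pancreas and fat markers tested, 6 and 4, none was called either.

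At 8 Gy, 845 of 38362 tested probes were called, which is 2.2% of them. The called probes comprised 523 that were lower (1.36% of those tested) and 322 that were higher (0.839%), and they carried 387 and 198 named genes. Over everything tested the median log2 fold change was 0.0048. Scaling each array to its 75th percentile in place of quantile normalization moved this median to 0.13, and 359 probes were then lower and 665 higher, so the direction of the majority depended on the scaling (38.1% higher against 64.9%). The scanner software's processed signal, scaled in the same way, gave a median of 0.126 with 558 probes lower and 856 higher (60.5% higher), and the deposited series values gave 643 lower and 694 higher (51.9% higher). With slide as a term, 265 probes were called and 116 of them were among the 845.

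**Figure D1:**
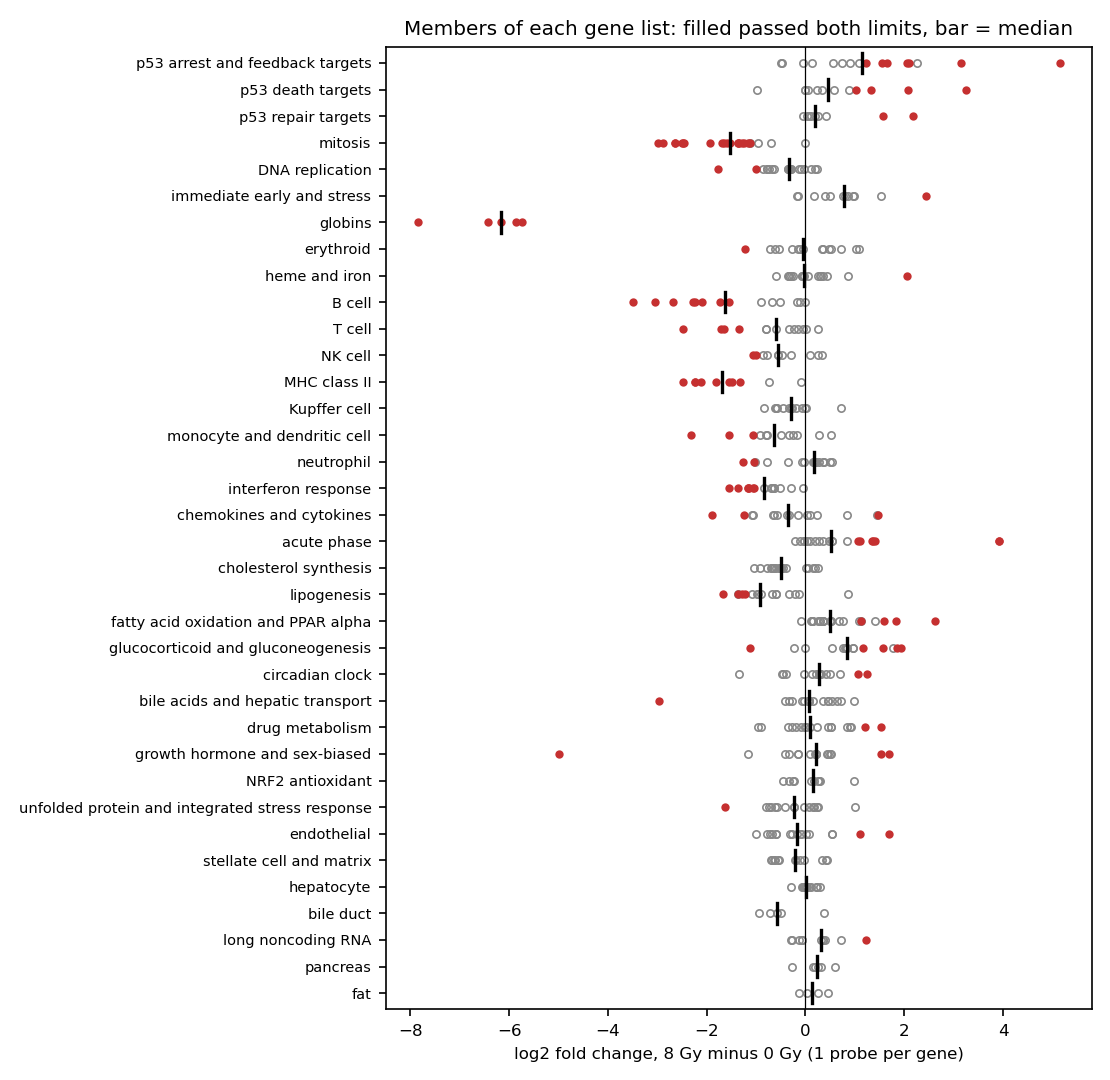
Log2 fold change at 8 Gy against 0 Gy (horizontal axis) of every tested member of 36 gene lists (rows), 1 probe a gene. Filled points were called, open points were not, and the bar is the list's median. The 5 globins lie furthest to the left, between -7.84 and -5.74, and *Cdkn1a* lies furthest to the right at 5.15.

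The 36 lists hold 535 genes, of which 508 were tested, and 111 of the 508 were called. In 110 of these 111 genes the 3 values at 8 Gy all lay outside the range of the 3 controls. So did 838 of all 845 called probes, so that this separation goes with being called and not with the lists. Across all tested probes 31.9% separated in this way. The largest increase was that of *Cdkn1a* and the largest decrease that of *Hbb-bt*, a beta globin gene. The plot of the 12 largest changes each way among genes well above background in both groups shows every mouse.

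Promoter windows of 3 called genes are printed to show the letters searched for in the lists of p53 targets, mitotic genes and globin and erythroid genes. Windows were read for the 6 called genes with the largest changes among those of the searched lists that had a window. That of *Cdkn1a* holds a match to the letters searched for in its list. Those of *Hbb-bt*, *Hba-a2*, *Hba-a1*, *Eda2r* and *Phlda3* hold no match to the letters of theirs. All are RefSeq windows of GRCm38.p6, from 250 bases before to 50 bases after the annotated start, in the direction of the gene. Capitals mark the matches. In *Cdkn1a* these are matches to the p53 decamer, in *Mki67* matches to the CHR element (TTTGAA or TTTAAA) and to CCAAT, and in *Alas2* a match to AGATAA, all searched on both strands. The *Mki67* and *Alas2* windows were picked for their matches, after the windows had been searched.

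Cdkn1a, chr17:29090729-29091028, plus strand: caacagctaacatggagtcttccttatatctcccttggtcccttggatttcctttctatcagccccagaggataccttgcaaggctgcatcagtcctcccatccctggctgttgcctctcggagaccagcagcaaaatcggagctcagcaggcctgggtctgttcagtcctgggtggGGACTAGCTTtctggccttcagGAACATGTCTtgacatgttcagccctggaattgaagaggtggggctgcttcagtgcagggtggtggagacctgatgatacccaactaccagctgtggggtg

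Mki67, chr7:135716330-135716629, minus strand: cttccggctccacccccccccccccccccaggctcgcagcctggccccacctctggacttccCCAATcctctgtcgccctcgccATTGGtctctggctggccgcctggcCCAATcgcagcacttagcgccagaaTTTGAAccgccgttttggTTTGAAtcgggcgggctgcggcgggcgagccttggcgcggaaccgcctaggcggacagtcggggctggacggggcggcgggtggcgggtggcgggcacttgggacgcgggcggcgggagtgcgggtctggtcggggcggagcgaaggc

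Alas2, chrX:150547167-150547466, plus strand: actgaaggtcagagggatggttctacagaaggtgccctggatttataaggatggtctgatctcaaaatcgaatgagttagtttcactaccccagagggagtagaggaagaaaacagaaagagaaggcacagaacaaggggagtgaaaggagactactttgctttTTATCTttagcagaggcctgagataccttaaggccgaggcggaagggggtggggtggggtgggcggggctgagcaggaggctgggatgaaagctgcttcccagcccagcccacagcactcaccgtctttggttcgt

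The p53 decamer was present in 8 of the 15 windows (53.3%) of called p53 target genes, in 7 of the 23 windows (30.4%) of targets that were tested and not called, and in 8.4% of all 32851 windows of the table. In *Cdkn1a* the matches begin 73 and 51 bases before the start. The CHR letters were present in 15 of 17 windows (88.2%) of called mitotic genes in 3 of 4 windows of those not called and in 27.6% of all windows. CCAAT was present in 14 of the 17 (82.4%), in 4 of the 4 not called (100.0%) and in 37.4% of all windows, and in *Mki67* both occur close together, the CHR matches at 116 and 98 bases and the CCAAT matches at 188, 166 and 141 bases before the start. AGATAA, the letters bound by GATA factors in erythroid genes, was in 1 of 4 windows (25.0%) of called globin and erythroid genes, that of *Alas2* at 86 bases before the start, in 4 of 10 (40.0%) of those not called and in 11.2% of all windows. CACGTG, the E-box of the circadian clock, was in 2 of 3 windows (66.7%) of called clock genes, in 4 of 16 (25.0%) of those not called and in 7.2% of all windows. These matches describe letters and not bound sites.

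Targets of p53 that halt the cell cycle or feed back on p53 were higher in 7 of 16 tested members and lower in none, with a median log2 fold change of 1.15. *Cdkn1a* (NM_007669, chr17:29090979-29100722) stood at 5.94, 6.75 and 6.70 in the controls and at 11.22, 11.79 and 11.82 at 8 Gy. This is a log2 fold change of 5.15 (standard error 0.24, adjusted p = 4.28e-08), or 35.5-fold, and no irradiated mouse came near the controls. *Phlda3*, whose product restrains the kinase Akt, rose from 7.46, 7.41 and 7.28 to 10.29, 10.56 and 10.73, by 3.15 (standard error 0.14, adjusted p = 4.28e-08). Both kept their calls with slide as a term, at 5.56 and 3.40. *Trp53inp1*, a p53 partner protein, and *Ccng1*, which encodes cyclin G1, rose by 2.10 and 2.06, and both also kept their calls with slide as a term. *Mdm2* rose from 10.77, 10.85 and 10.75 to 12.08, 12.44 and 12.50, by 1.55 (adjusted p = 3.90e-05), in 1 of its 2 tested probes. With slide as a term it was 1.2 and no longer called. *Psrc1*, a microtubule-associated protein gene, rose by 1.66 and *Ddit4l*, whose product restrains mTOR signaling, by 1.22, and neither was called with slide as a term or at an offset of 50 in the background correction. *Psrc1* was also not called without control mouse 1 or with the 6 arrays alone.

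Some targets of this group moved with large differences between mice. *Gdf15*, a stress cytokine, was at 8.20, 10.08 and 11.31 in the controls and at 10.84, 12.29 and 13.24 at 8 Gy, so that the groups overlapped, and its log2 fold change of 2.26 was not called (standard error 0.76, adjusted p = 0.0738). It stayed uncalled in 12 of 17 alternative settings and was called higher in the rest. *Btg2*, an antiproliferative gene, overlapped as well, with 9.01, 10.74 and 12.08 in the controls and 10.08, 12.18 and 12.79 at 8 Gy (1.07, adjusted p = 0.491). In both genes control mouse 1 was lowest and control mouse 21 highest. The same order of the controls was seen in *Fos*, an immediate early gene, at 5.42, 8.08 and 11.16, against 6.64, 10.63 and 10.34 at 8 Gy (0.98, standard error 1.69, adjusted p = 0.773). *Sesn2*, a stress-response gene, did not overlap but its 0.90 (adjusted p = 0.0169) was below the fold limit.

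Among p53 targets that promote cell death, 4 of 12 tested members were higher and none lower, with a median of 0.45. *Eda2r*, a death receptor of the TNF receptor family, was not well above background in any control, at 3.84, 4.16 and 4.71, and stood at 8.11, 7.28 and 7.05 at 8 Gy. It was at least 8.35-fold higher (adjusted p = 2.22e-05). Such a limit sets the mean of the brighter group against that of the dim group, where a dim array counts with the lowest level well above background on it, or with the probe's own value if that is higher. Where all dim values are higher, the limit equals the measured fold change and does not allow for its standard error. *Camp*, *Cd2*, *H2-Ob*, *Itgax* and *Plk1*, given below, are among such genes. *Tnfrsf10b*, the receptor of the death ligand TRAIL, rose from 5.45, 5.68 and 6.03 to 7.44, 7.55 and 8.38, by 2.07 (standard error 0.29, adjusted p = 0.000855). *Aen*, which encodes a nuclease active in apoptosis, rose by 1.33 and *Ei24* by 1.02, the latter in 1 of its 2 tested probes. All 4 kept their calls with slide as a term, and *Bax* was then called too, at 1.27. *Ei24* was not called without control mouse 11 or 21 or 8 Gy mouse 15, nor under 4 of the other settings.

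Other death genes of the same list were not called. *Bax* was at 10.65, 10.90 and 10.86 in the controls and at 11.61 and 11.96 in 8 Gy mice 5 and 15, with mouse 25 just below these and above every control, a change of 0.89 (adjusted p = 0.00207) that is below the fold limit. *Bbc3*, which encodes the BH3-only protein Puma, went from 10.65, 10.70 and 10.37 to 9.54, 9.53 and 9.71, a change of -0.98 (standard error 0.22, adjusted p = 0.0129), also short of the fold limit. The groups of *Bbc3* did not overlap. The gene stayed uncalled in 13 of 17 alternative settings and was called lower in the rest. Of the 9 tested repair targets, *Ddias* and *Polk* were higher and none was lower, with a median of 0.20. *Ddias*, a DNA damage-induced survival gene, rose from 5.04, 5.23 and 5.43 to 6.83, 7.44 and 7.93, by 2.17. *Polk*, a polymerase that copies past DNA lesions, rose by 1.57 in 1 of its 2 tested probes, from 7.87, 8.23 and 8.22 to 9.65, 9.52 and 9.88. Both kept their calls under every setting tried.

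**Figure D2:**
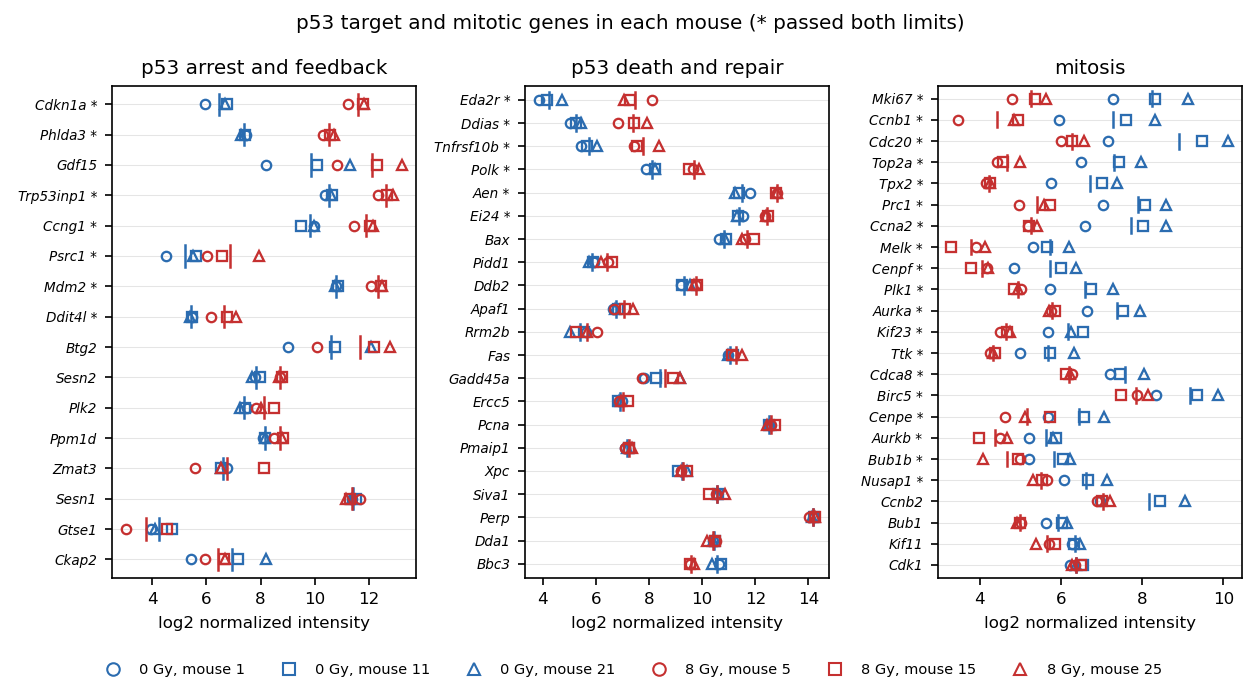
Log2 normalized intensity (horizontal axis) in each mouse of the tested p53 arrest and feedback targets (left), p53 death and repair targets (middle) and mitotic genes (right). Blue is 0 Gy, red is 8 Gy, symbols are mice, bars are group means and an asterisk marks a called gene. In all 23 mitotic genes control mouse 1 is the lowest of the controls, as in *Cdc20* at 7.17 against 9.47 and 10.12, where the 8 Gy mice lie at 5.99 to 6.57.

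Mitotic genes were lower in 19 of 23 tested members and higher in none, with a median of -1.52. The summed level of the list was 10.99, 12.08 and 12.61 in the control mice and 10.10, 10.16 and 10.29 at 8 Gy, so that the controls differed more from each other than the irradiated mice did. *Mki67*, the gene of the proliferation marker Ki-67, fell from 7.28, 8.31 and 9.13 to 4.80, 5.35 and 5.62, by 2.98 on the log2 scale (standard error 0.41, adjusted p = 0.000669). *Cdc20*, an activator of the anaphase-promoting complex, was at 5.99, 6.26 and 6.57 at 8 Gy, a change of -2.64 (standard error 0.58, adjusted p = 0.0121) that was not called without control mouse 11 or 21. *Ccnb1*, which encodes cyclin B1, was at least 5.81-fold lower and *Top2a*, the gene of topoisomerase II alpha, at least 6.13-fold lower. The kinase genes *Plk1* and *Aurkb*, at least 3.14-fold and 2.13-fold lower, were likewise not well above background on any 8 Gy array. *Aurka*, another mitotic kinase gene, fell by 1.6, and *Ccna2*, which encodes cyclin A2, and *Prc1*, a spindle midzone gene, changed by -2.47 and -2.48.

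In 11 of the 23 mitotic genes 1 of the groups was not well above background on any array, and the number called was 13 to 21 as single mice were left out. The number was 9 at a background offset of 50 and 10 when the 6 arrays were normalized and fitted alone. With slide as a term it was 1, *Melk*, a mitotic kinase gene, which was not called at a background offset of 50. Of 20 genes of DNA replication 2 were lower, and the list's median was -0.34. *Mcm5*, a helicase subunit, went from 7.15, 8.09 and 7.92 to 5.94, 5.84 and 6.09, a change of -1.76, and *Mcm2*, of the same complex, had -1.01. The call of *Mcm2* was lost without any of 5 of the 6 mice, and neither was called with slide as a term.

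In immediate early and stress genes, 1 of 12 tested members was called. *Gadd45b*, a stress sensor gene, rose from 7.78, 8.28 and 8.97 to 10.23, 10.99 and 11.10, by 2.43 (standard error 0.40, adjusted p = 0.00220), and was 1.76 and not called with slide as a term. The remaining 11 changed by -0.17 to 1.53 and were not called.

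The 5 globin genes with a named probe, which encode the chains of hemoglobin, were all lower and had the 5 largest decreases of all named genes. The beta globin gene *Hbb-bt* fell from 13.69, 14.28 and 14.01 to 5.89, 5.90 and 6.67, by 7.84 on the log2 scale (standard error 0.45, adjusted p = 3.34e-07), which is 229.7-fold. *Hbb-b1* was at 14.53, 14.40 and 14.53 in the controls and 7.93, 7.52 and 8.76 at 8 Gy, a change of -6.42. *Hbb-b2* changed by -6.16, *Hba-a2* by -5.85 and *Hba-a1* by -5.74. The alpha globin genes remained bright, for example *Hba-a2* at 9.98, 9.87 and 10.61 at 8 Gy against 15.93, 16.14 and 15.96. In all 5 genes 8 Gy mouse 25 had the highest value of the irradiated mice. The coding copies are nearly identical, the promoter windows of *Hba-a1* and *Hba-a2* share a stretch of 297 bases, and the probes may read more than 1 copy. All 5 kept their calls under every setting tried, and with slide as a term the changes were -8.28 to -5.91.

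Of 15 tested erythroid genes 1 was lower, *Alas2*, the erythroid enzyme of the first step of heme synthesis, and the list's median was -0.04. *Alas2* went from 12.00, 11.63 and 11.71 to 10.30, 10.42 and 10.91, a change of -1.23 (standard error 0.21, adjusted p = 0.00247), which was -1.43 and not called with slide as a term. *Slc4a1*, the red cell anion exchanger, had 5.48, 6.16 and 6.09 in the controls and 5.89, 4.72 and 4.96 at 8 Gy, and was not called (-0.72, adjusted p = 0.101). *Gata1*, *Kel*, *Sptb* and *Trim10* were not well above background on any liver array. In bulk tissue fewer cells of a type and less RNA per cell cannot be told apart, here and for the leukocyte genes below.

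Among 18 genes of heme and iron handling, *Id1*, a target of BMP signaling, was higher and none was lower. It went from 9.54, 9.76 and 10.25 to 11.51, 12.14 and 12.05, a change of 2.05 (standard error 0.27, adjusted p = 0.000538) and 1.85, not called, with slide as a term. *Hamp*, which encodes the iron hormone hepcidin, stood at 17.07, 17.17 and 16.92 in the controls and at 17.90, 17.96 and 17.90 at 8 Gy. The groups did not overlap, and the change of 0.86 (adjusted p = 0.000386) was below the fold limit.

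B cell genes were lower in 8 of 14 tested members, with a median of -1.64. *Fcmr*, the receptor for IgM, was at 7, 7.39 and 7.45 in the controls and not well above background at 8 Gy, at 4.21, 3.74 and 3.43, so it was at least 7.77-fold lower (adjusted p = 2.65e-07). *Ms4a1*, which encodes CD20, was at least 6.97-fold lower in 1 of its 2 tested probes. *Cd79b*, a signaling chain of the B cell receptor, fell from 8.35, 9.13 and 9.19 to 6.08, 6.70 and 7.08, by 2.27. *Pou2af1*, a B cell transcriptional coactivator, was at least 4.67-fold lower, and *Fcer2a*, *Cxcr5* and *Blnk* were lower as well. *Cd79a*, the partner of *Cd79b*, was close to background with 4.69, 4.95 and 4.94 in the controls and 4.31, 4.37 and 4.38 at 8 Gy, and was not called (-0.51, adjusted p = 0.36). With slide as a term *Fcmr* and *Pou2af1* kept their calls, while *Ms4a1*, *Cd79b*, *Fcer2a*, *Cxcr5* and *Blnk* did not. Summed over the list, the level was 10.76 to 11.08 in the controls and 9.27 to 9.38 at 8 Gy.

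**Figure D3:**
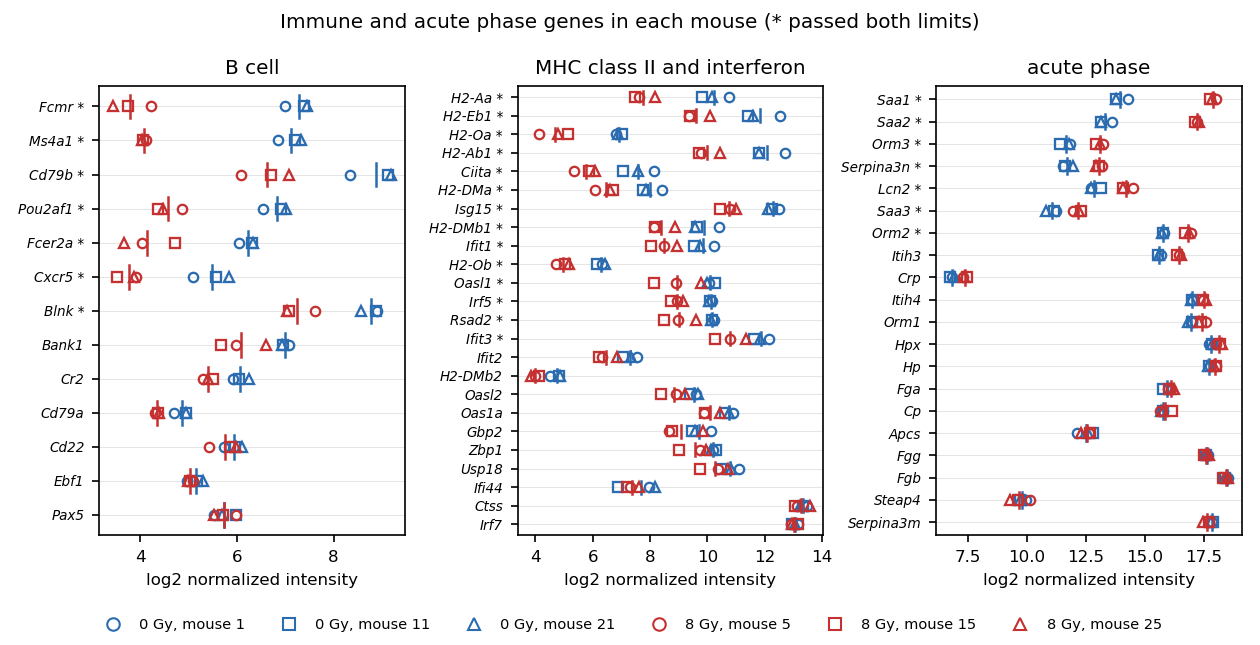
Log2 normalized intensity (horizontal axis) in each mouse of tested B cell genes (left), MHC class II and interferon response genes (middle) and acute phase genes (right), without genes not reported here. Blue is 0 Gy, red is 8 Gy, symbols are mice, bars are group means and an asterisk marks a called gene. In *H2-Aa*, *H2-Ab1* and *H2-Eb1* control mouse 1 is the highest control and mouse 25 the highest 8 Gy mouse, and in *Saa1* all 8 Gy mice lie at 17.76 to 18.

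T cell genes were lower in 4 of 13 tested members, with a median of -0.59. *Cd8b1* and *Cd8a*, the chains of the CD8 coreceptor, were at least 5.22-fold and 2.11-fold lower, and *Cd2*, an adhesion receptor, at least 3.16-fold lower. *Cd3d*, a chain of the T cell receptor complex, fell from 8.39, 8.09 and 7.91 to 6.81, 6.84 and 6.71, by 1.34 (standard error 0.24, adjusted p = 0.00361). The list's summed level, which is carried by its brightest members, was 13.27 to 13.75 in the controls and 13.27 to 13.69 at 8 Gy and did not separate. With slide as a term only *Cd2* of the 4 was called. At a background offset of 50 *Cd2* and *Cd8a* were not called. In NK cell and cytotoxic genes 2 of 11 were lower, *Ccl5*, a chemokine gene, by 1.07 and *Gzmb*, a granzyme gene, by 1.01, and neither was called without control mouse 1. *Gzmb* was also not called without control mouse 11 or 21 or 8 Gy mouse 15 or at a background offset of 50, and with slide as a term neither was called.

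MHC class II genes, whose products present antigen on B cells, dendritic cells and macrophages, were lower in 8 of 10 tested members with a median of -1.69. *H2-Aa* fell from 10.75, 9.83 and 10.17 to 7.63, 7.49 and 8.17, a change of -2.49 (standard error 0.36, adjusted p = 0.000895). *H2-Ab1* and *H2-Eb1* changed by -2.11 and -2.23. *Ciita*, the master activator of these genes, fell by 1.82 in 1 of its 2 tested probes, from 8.13, 7.06 and 7.57 to 5.34, 5.87 and 6.09. *H2-DMa* and *H2-DMb1*, which load peptides, changed by -1.55 and -1.49. *H2-Oa* and *H2-Ob*, which hold this loading back, were at least 4.28-fold and 2.51-fold lower. Only *H2-Oa* kept its call with slide as a term, at -2.03, and the other 7 then had changes of -1.79 to -0.70. *H2-DMb1* was also not called without control mouse 1.

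Markers of Kupffer cells, the resident macrophages of the liver, were not called in any of 13 members, with changes between -0.84 and 0.73 and a median of -0.30. *Clec4f*, a lectin found on these cells, was at 13.65, 13.66 and 13.70 in the controls and 13.04, 13.19 and 13.42 at 8 Gy (-0.45, adjusted p = 0.0188). Monocyte and dendritic cell genes were lower in 3 of 12, *Chil3*, a macrophage chitinase-like gene, at least 4.17-fold, *Itgax*, which encodes CD11c, at least 2.91-fold and *Flt3*, a growth factor receptor of dendritic cell precursors, at least 2.07-fold. *Chil3* and *Itgax* kept their calls with slide as a term and *Flt3* did not (adjusted p = 0.166), nor was *Flt3* called without control mouse 1. At a background offset of 50 neither *Itgax* nor *Flt3* was called. Of 16 neutrophil genes 9 had a positive change, and the list's median was 0.17. Also 9 of the 16 were not well above background in 1 of the groups or both. Lower were 2 of the 16, *Camp*, the gene of cathelicidin, at least 2.39-fold and *Prtn3*, that of proteinase 3, by 1.04. Neither was called with slide as a term, at -0.95 and -1.77, or at a background offset of 50. *Camp* was not called with the 6 arrays alone, and *Prtn3* was not called without control mouse 11 or 8 Gy mouse 5.

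Interferon response genes were lower in 7 of 15 tested members and higher in none, with a median of -0.85. *Isg15*, a ubiquitin-like modifier, fell from 12.52, 12.25 and 12.12 to 10.78, 10.46 and 11.00, by 1.55 (standard error 0.20, adjusted p = 0.000512). *Ifit1* changed by -1.36, *Oasl1* by -1.17, *Irf5* by -1.17, *Rsad2* by -1.14 and *Ifit3* by -1.06. *Irf5* was called in 1 of its 2 tested probes. The number called was 4 without control mouse 1, control mouse 21 or 8 Gy mouse 5, 3 without 8 Gy mouse 15 and 3 with the 6 arrays alone. With slide as a term it was 0.

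Chemokine and cytokine genes were called in 3 of 16 cases. *Il1r1*, the receptor of interleukin 1, rose from 9.44, 8.92 and 9.26 to 10.87, 11.05 and 10.07, by 1.46, and was 0.92 and not called with slide as a term. *Cxcl10*, an interferon-induced chemokine, changed by -1.89 and *Cxcl14* by -1.24 in 1 of its 2 tested probes, and both calls were lost without any single control and with slide as a term. Without 8 Gy mouse 5 or 15 *Cxcl10* was not called, and without 8 Gy mouse 25 *Cxcl14* was not. *Cxcl1*, a neutrophil attractant, had 9.06, 10.46 and 11.02 in the controls and 10.85, 11.54 and 12.46 at 8 Gy, with overlap, and was not called (1.44, adjusted p = 0.0945). *Cxcl1* was called with the sets of sample numbers as a block, which was chosen after the data were seen.

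Acute phase genes were higher in 7 of 20 tested members and lower in none, with a median of 0.51. *Saa1*, a serum amyloid A gene, stood at 14.27, 13.78 and 13.77 in the controls and at 18, 17.76 and 17.84 at 8 Gy, a change of 3.93 (standard error 0.40, adjusted p = 6.42e-05) or 15.2-fold. *Saa2* rose by 3.91 from 13.59, 13.14 and 13.14 to 17.19, 17.12 and 17.29. These genes are nearly identical, and their probes may read both. *Saa3* rose by 1.1, the orosomucoid genes *Orm3* and *Orm2* by 1.41 and 1.07, *Serpina3n*, a serine protease inhibitor gene, by 1.36, and *Lcn2*, an iron-sequestering lipocalin, by 1.36. *Lcn2* was at 12.70, 13.14 and 12.70 in the controls and 14.50, 14.06 and 14.05 at 8 Gy. *Saa1*, *Saa2* and *Serpina3n* kept their calls with slide as a term, the other 4 did not, and *Saa3* was not called without control mouse 21. The other 13 members, with the fibrinogen genes *Fga*, *Fgb* and *Fgg* and *Hp*, which encodes haptoglobin, changed by -0.22 to 0.84.

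Genes of fatty acid synthesis were lower in 4 of 16 tested members, with a median of -0.93. *Srebf1*, the transcription factor that drives them, fell from 15.16, 15.13 and 14.63 to 13.49, 13.85 and 13.50, by 1.36 (standard error 0.18, adjusted p = 0.000538). *Elovl6*, an elongase, fell from 12.93, 12.63 and 12.09 to 11.06, 11.00 and 10.57, by 1.67. *Fasn*, the fatty acid synthase gene, changed by -1.29 and *Pklr*, the liver pyruvate kinase gene, by -1.22. The list had 2 calls without control mouse 1, control mouse 11 or 8 Gy mouse 25, and 0 with slide as a term, where *Srebf1* was -0.95 and *Elovl6* -1.2. *Scd1*, a desaturase gene, was at 16.17, 16.10 and 16.17 in the controls and 14.63, 15.38 and 15.75 at 8 Gy and was not called (-0.90, adjusted p = 0.117).

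None of 19 cholesterol synthesis genes was called, and the irradiated mice differed from each other. *Sqle*, which encodes squalene epoxidase, had 14.01, 14.17 and 13.78 in the controls and 14.58, 13.08 and 11.97 at 8 Gy, and *Fdps*, the farnesyl diphosphate synthase gene, had 14.98, 15.20 and 14.89 against 15.04, 14.01 and 12.88. 8 Gy mouse 25 was lowest of all 6 in both genes, while mouse 5 lay above the controls in *Sqle* and within their range in *Fdps*. The summed level of the list was 18.57, 17.87 and 17.39 in 8 Gy mice 5, 15 and 25 against 18.26 to 18.33 in the controls.

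Genes of fat oxidation, lipid droplets and PPAR alpha were higher in 4 of 23 tested members, with a median of 0.50, and 22 of the 23 changes were positive. *Plin4*, a lipid droplet coat gene, rose from 6.77, 6.79 and 6.57 to 9.49, 9.50 and 9.02, by 2.63 (standard error 0.38, adjusted p = 0.000929). *Plin5*, of the same family, rose by 1.59, *Acot3*, an acyl-CoA thioesterase gene, by 1.83 in 1 of its 2 tested probes, and *Angptl4*, an inhibitor of lipoprotein lipase, by 1.13. *Cpt1a*, the gate to mitochondrial fat oxidation, changed by 0.68 (adjusted p = 0.0145), and *Cyp4a14*, a PPAR alpha target, by 1.41 (adjusted p = 0.0694), and neither was called. The number called was 2 without control mouse 11 and 0 with slide as a term, where *Plin4* was 1.94.

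Glucocorticoid-responsive and gluconeogenic genes were higher in 4 of 15 tested members and lower in 1, with a median of 0.84. *Fkbp5*, a chaperone of the glucocorticoid receptor, rose from 10.68, 10.43 and 10.49 to 12.15, 12.24 and 11.94, by 1.58 (standard error 0.20, adjusted p = 0.000381). *Cebpd*, a transcription factor gene, rose from 9.81, 9.49 and 9.78 to 11.27, 11.41 and 11.98, by 1.86. *Zbtb16* had 1.93 and *Tsc22d3*, which encodes the leucine zipper protein GILZ, 1.17 in 1 of its 3 tested probes. *Irs2*, an insulin signaling adaptor gene, changed by -1.13. *Zbtb16* was not called when any of the 6 mice was left out, and *Irs2* was not called without control mouse 1 or 21 or 8 Gy mouse 5 or 15. None of the 5 was called with slide as a term, where *Fkbp5* was 1.49 and *Cebpd* 0.69. *Dusp1*, a phosphatase gene, was at 10.18, 11.54 and 12.15 in the controls and 12.20, 13.69 and 13.27 at 8 Gy and was not called (1.76, adjusted p = 0.0989). *Dusp1* was called with the sets of sample numbers as a block, which was chosen after the data were seen.

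Of 16 circadian clock genes 2 were higher, *Per1* by 1.05 and *Ciart*, a repressor of the clock, by 1.25. The number was 0 without control mouse 11 or 21 and with slide as a term, and 1 without control mouse 1 or 8 Gy mouse 15 or 25. *Nr1d1*, which encodes the clock repressor REV-ERB alpha, was at 8.52, 8.36 and 8.91 in the controls and 6.58, 7.15 and 8.00 at 8 Gy, without overlap, and was not called (-1.36, adjusted p = 0.102).

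Among genes that depend on growth hormone or differ between the sexes, 1 of 17 was lower and 2 were higher. *Hsd3b5*, a steroid dehydrogenase gene best known from male mouse liver, fell from 12.91, 12.62 and 12.38 to 7.98, 9 and 5.99, by 4.98 on the log2 scale (standard error 0.57, adjusted p = 0.000187) or 31.6-fold. *Slco1a1*, a hepatic organic anion transporter, fell by 2.96, from 13.15, 12.80 and 12.89 to 10.18, 10.85 and 8.93, and was the only called gene of 18 in bile acid synthesis and hepatic transport. 8 Gy mouse 25 was lowest in both. It also stood apart in *Elovl3*, an elongase gene, at 5.97 against 9.54 and 9.66 in the other 8 Gy mice and 9.52, 9.21 and 9.96 in the controls, so that the change of -1.17 was not called (adjusted p = 0.341) and was 0.037 without mouse 25. *Hsd3b5* and *Slco1a1* kept their calls under every setting, mouse 25 left out included. *Cux2*, a female-biased transcription factor gene, rose from 6.52, 7.76 and 7.74 to 9, 9.08 and 8.99, by 1.69. It was not called with slide as a term, also at 1.69.

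Drug metabolism genes were higher in 2 of 19 tested members, the glutathione transferase gene *Gsta2* by 1.54 and the cytochrome gene *Cyp2j9* by 1.21, and the list's median was 0.10. Neither was called with slide as a term, at 1.47 and 1.1. *Gsta2* was also not called without control mouse 11 or with the 6 arrays alone, and *Cyp2j9* not without 8 Gy mouse 15. *Cyp1a2* had 15.07, 14.83 and 14.78 in the controls and 14.20, 14.57 and 13.21 at 8 Gy and was not called (-0.90, adjusted p = 0.0568). None of 10 antioxidant genes of the NRF2 pathway was called, with *Nqo1* at 0.98 (adjusted p = 0.0108). Of 16 genes of the unfolded protein and integrated stress responses 1 was lower, *Sdf2l1*, a chaperone cofactor of the endoplasmic reticulum, from 12.21, 11.99 and 11.82 to 10.75, 10.35 and 10.02 (-1.63, adjusted p = 0.000381). It was -1.27 and not called with slide as a term (adjusted p = 0.155). *Herpud1*, of the same response, had a positive change of 0.99 (adjusted p = 0.0117) and was not called.

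Endothelial genes were higher in 2 of 17 tested members and lower in none. The list's median was -0.18, and 11 of the 17 changes were negative. *Lyve1*, a marker of liver sinusoidal and lymphatic endothelium, rose from 9.03, 9.16 and 9.31 to 10.93, 10.52 and 11.10, by 1.69 (standard error 0.22, adjusted p = 0.000402), and *Vcam1*, a leukocyte adhesion gene, by 1.11 in 1 of its 2 tested probes. Neither was called with slide as a term, at 1.42 and 0.99, and *Vcam1* was not called without control mouse 11 or 8 Gy mouse 25. None of 13 stellate cell and matrix genes, with changes of -0.70 to 0.43 and *Col1a1* at -0.64 (adjusted p = 0.119), and none of 5 bile duct genes was called. Of 11 long noncoding RNAs, *Snhg15* was higher, from 8.28, 8.41 and 8.35 to 9.06, 10.01 and 9.67, by 1.23, and the other 10 changed by -0.30 to 0.73. *Snhg15* was not called with slide as a term, at 1.37 (adjusted p = 0.133).

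Several of the largest changes belong to no list. *Gm45941*, an uncharacterized noncoding transcript (XR_381388, chr12:27946042-27985101), rose from 5.82, 5.82 and 6.08 to 8.87, 9.90 and 9.41, by 3.49 (adjusted p = 3.18e-05), and the noncoding transcript *1810053B23Rik* rose by 2.29. *Ccn2*, which encodes connective tissue growth factor, rose from 9.31, 8.32 and 8.57 to 11.14, 10.61 and 11.89, by 2.48. Neither *1810053B23Rik* nor *Ccn2* was called with slide as a term, at 1.96 (adjusted p = 0.171) and 2.35 (adjusted p = 0.249). *Serpina9*, a gene of the serpin family, fell from 9.29, 10.01 and 9.06 to 5.66, 4.55 and 4.70, by 4.48 (adjusted p = 0.000170), and *Zdhhc22*, a gene of the palmitoyltransferase family, by 2.67. The pseudogenes *Serpina4-ps1* and *Ccnb1-ps* were lower, the first by 2.66, with 8 Gy mouse 25 lowest at 5.07, and the second at least 6.16-fold. The probe of *Ccnb1-ps* may also read *Ccnb1*, and *Serpina4-ps1* was not called without control mouse 11 or with the 6 arrays alone. *Zfp365*, *Catsper1* and *Olfr1508* were at least 3.29-fold, 3.25-fold and 3.11-fold higher. *Catsper1* and *Olfr1508* lost their calls without any single control or without 8 Gy mouse 5, and *Olfr1508* also without 8 Gy mouse 25. These 3 and the 2 pseudogenes were not called with slide as a term. By contrast *Gm45941*, *Serpina9* and *Zdhhc22* kept theirs under every setting.

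The next higher dose was compared with 8 Gy directly, in the 3 liver arrays of 12 Gy mice. No probe was called between 12 and 8 Gy by limma, 0% of those tested, and the smallest adjusted p was 0.114, while 3752 probes had an unadjusted p below 0.05. The count was 0 to 4 under the other background corrections, scalings and filters, and 0 to 11 as single mice were left out, with 11 without 8 Gy mouse 25. *Gzma* and *Klrd1*, both genes of cytotoxic lymphocytes, were named among the 4 probes called from the processed signal, at -1.29 and -1.18. The count was 191 with slide as a term. In that model the contrast sets 1 array, that of 12 Gy mouse 6 on slide 2, against the 3 arrays at 8 Gy. The other 12 Gy mice, 16 and 26, were the only liver arrays on slide 3. This count therefore does not describe the 12 Gy group.

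The liver change was also set against that of lung from mice of the same doses, in a joint fit of 36 arrays. The labels give the lung arrays the same sample numbers as the liver arrays, so both organs may come from the same mice, and the joint fit treated the arrays as independent. With the sample number as a random block the count given next was 470 too. The change at 8 Gy differed between the organs for 470 of 47376 probes (0.992%), with the higher log2 fold change in liver for 252 (0.532%) and in lung for 218 (0.46%). Of the genes plotted, which are the called list members and the largest changes, 26 of 121 differed. Genes with a larger rise in liver included *Cdkn1a*, by 1.43 (lung log2 fold change 3.39, adjusted p of the difference 0.0154), and *Phlda3*, by 1.45 (adjusted p = 0.000426). *Gm45941* had a lung log2 fold change of 0.001 and differed by 3.38. *Hsd3b5* and *Slco1a1* fell more in liver, by differences of -4.30 and, in the brighter of the 2 called *Slco1a1* probes, -2.99, and so did *Chil3*, by -2.66, and the alpha globin genes *Hba-a1* and *Hba-a2*, by -2.27 and -2.12. The other *Slco1a1* probe had a difference of -2.50 that did not pass the test (adjusted p = 0.225). In lung *Hsd3b5* changed by -0.28 and that *Slco1a1* probe by -0.29. A probe entered this fit if it was well above background on at least 1 of the 36 arrays, of either organ. A gene that is dim in lung cannot show a fall there, and the lung levels of these genes were not examined. Lymphocyte genes that differed had the higher log2 fold change in liver, in 8 of 14 B cell, 7 of 13 T cell and 2 of 11 NK cell genes, and none differed the other way. In the liver fit 8 of the 14, 4 of the 13 and 2 of the 11 were not well above background in 1 of the groups or both. A fall into background is measured only in part, and its share in these differences was not tested. The median log2 fold change was -3.83 in lung for the B cell list and -2.45 for the T cell list, and liver minus lung was 1.89 for *Fcmr* and 3.17 for *Cd3d*, while *Ms4a1* did not pass the test, at 1.79 (adjusted p = 0.142). *Alas2* had the smallest adjusted p of the list members, with a difference of 6.17 (adjusted p = 9.71e-08). The death genes *Bbc3* and *Pmaip1* differed by -1.70 and -1.81 (adjusted p = 0.000426 and 1.74e-05). The lung arrays of these doses lay on slides 3 to 5, the controls on slide 3 and the 8 Gy mice on slides 4 and 5. Slide was not a term of this fit, and its part in these differences was not tested.

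**Figure D4:**
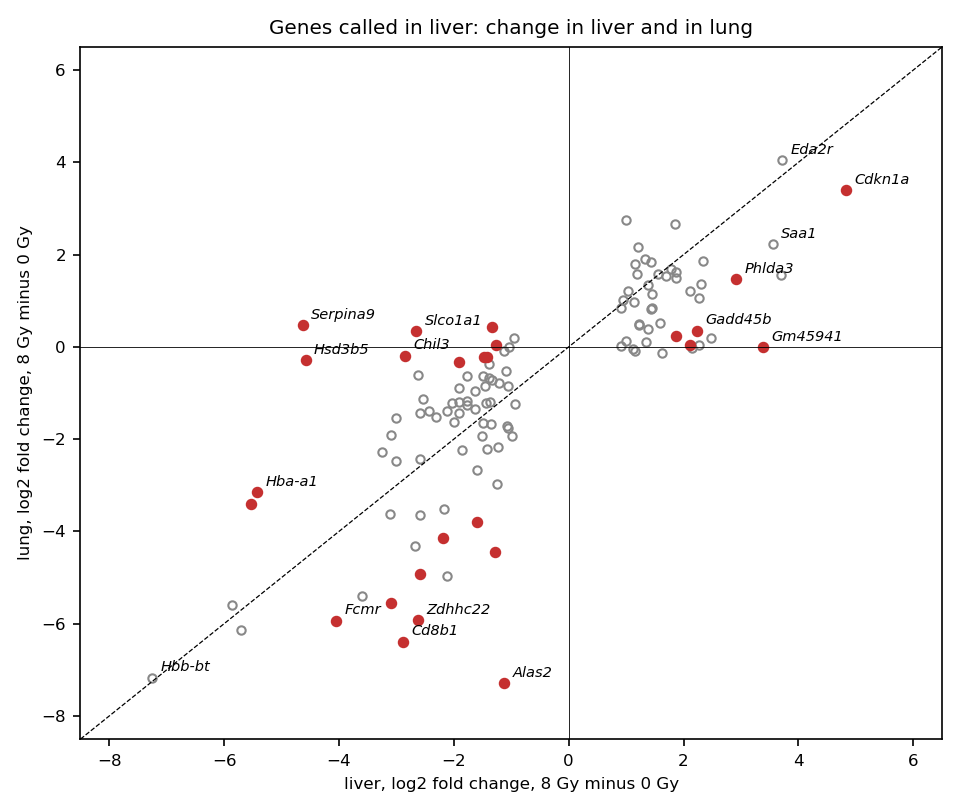
Log2 fold change at 8 Gy against 0 Gy in liver (horizontal axis) and lung (vertical axis) of 121 genes called in liver, from 1 joint fit. Filled points differed between the organs, open points did not pass that test, and the dashed line marks equal change. *Hsd3b5*, *Serpina9* and *Slco1a1* lie far to the left near 0 in lung, where their levels were not examined. *Alas2*, at -7.29, and *Hbb-bt*, at -7.17, lie lowest in lung.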

How the data were processed

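The authors deposited 1-colour Agilent scanner output for each array, made with Agilent Feature Extraction 11.5.1.1 according to the headers, and a table of processed series values. Unit of the former is spot intensity on a linear scale. The deposited series values are linear too and matched the processed intensity of each array divided by about its 75th percentile. From the scanner output, median spot and local background intensities were corrected with normexp (offset 0) in limma 3.58.1 under R 4.3.3, following the methods of the study. Control spots were dropped, outlier spots set to missing, and the 18 liver arrays quantile normalized, log2 transformed and averaged per probe. Probes well above background on at least 1 of the 18 arrays were tested, 38362 of 56605, in a limma model with 6 dose groups and 3 mice a dose. Of all probes 34566 (61.1%) were named by accession from a RefSeq table of GRCm38.p6. The number of arrays limits the precision.

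Genes named in the text are the 12 largest increases and decreases among called genes above background in both doses without overlap, the 4 largest limits each way among genes dim in 1 dose, and members of the gene lists. Members and lists were chosen with earlier results of these data known. Some genes enter the counts but are not reported here by name. Uncalled members named with values were picked after their values were seen. The alternatives were other background corrections, scalings, filters, sample sets and slide models, and leaving out each mouse. Blocks by sample number were added after the data were seen. Promoter windows came from RefSeq and were found for 400 of the 508 tested list genes.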

Additional observations from a re-analysis of the deposited data

Results flagged for a closer look

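Among the reported genes with the largest changes, 11 were marked because their change at 8 Gy differed between liver and lung by limma's test of the difference in the joint fit, with 3 mice a dose in each organ. Positive values mean a higher log2 fold change in liver. The difference was 1.43 for *Cdkn1a* (adjusted p = 0.0154), 3.38 for *Gm45941* (adjusted p = 0.000379), 1.45 for *Phlda3* (adjusted p = 0.000426), 1.89 for *Gadd45b* (adjusted p = 0.0151) and 2.08 for *1810053B23Rik* (adjusted p = 0.00985). It was -2.12 for *Hba-a2* (adjusted p = 0.0374), -2.27 for *Hba-a1* (adjusted p = 0.00993), -4.30 for *Hsd3b5* (adjusted p = 0.00018) and -5.11 for *Serpina9* (adjusted p = 6.31e-05). In *Zdhhc22* and *Fcmr*, which were lower in both organs, it was 3.30 (adjusted p = 0.00258) and 1.89 (adjusted p = 0.00936). *Fcmr* was not well above background in liver at 8 Gy, so its fall there was measured only in part. The lung levels of *Hsd3b5* and *Serpina9* were not examined, and a gene that is dim in lung cannot show a fall there.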

How the results depend on the processing

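The control and the irradiated mice share no number, but the numbers form 3 sets (1 to 6, 11 to 16 and 21 to 26). Deviations from the dose means correlated by 0.07, 0.01 and 0.04 within these sets between controls and 8 Gy mice. Across the sets they correlated by -0.06 to 0.02, the highest being that of 8 Gy mouse 15 with control mouse 21. All these correlations were small, and the sets were not taken as pairs in the main fit. With the sets as a replicate block, chosen after seeing the data, 793 probes were called, 777 of them among the 845, and 8 of 122 called probes followed by name were lost, at adjusted p of 0.0502 to 0.0664. *Gdf15* (adjusted p = 0.00286), *Dusp1* (0.00217), *Cxcl1* (0.00705) and *Btg2* (0.0256) were then called. The count of 845 probes called at 8 Gy against 0 Gy became 402 with an offset of 50 (220 lower, 182 higher), 1414 from the processed signal (856 higher), 1337 from the deposited values (694 higher) and 265 with slide as a term (159 lower, 106 higher). Of these 391, 678, 668 and 116 were among the 845. Scaling to the 75th percentile gave 665 higher. Leaving out 1 mouse gave 616 to 1090 probes, 398 to 645 lower and 218 to 445 higher, the lowest total without control mouse 11 and the highest without 8 Gy mouse 25. Of the 122 none reversed in 17 settings, 28 kept their call in all of them, 41 more in all but that with slide as a term, and 32 in all kept it with slide as a term. Between 12 and 8 Gy the count of 0 became 4 with the processed signal, 1 with 75th percentile scaling and 1 with the stricter filter. The count was 191 with slide as a term, where 12 Gy mouse 6 alone is set against the 8 Gy mice, and 0 to 11 without 1 mouse. For liver against lung it became 970 with the processed signal and 292 to 571 without 1 mouse. Uncalled changes that turned in sign were *Cd79a* (0.76 with slide as a term), *Fos* (-0.94 with slide as a term, -0.417 to 2.456 without 1 mouse, negative without control mouse 1) and *Elovl3* (-1.808 to 0.037 without 1 mouse, positive without 8 Gy mouse 25). Some uncalled genes gained a call without a change of sign. *Gdf15* stayed uncalled in 12 of the 17 settings, *Bbc3* in 13, *Nqo1* in 14, and *Cyp4a14* and *Herpud1* in 15. *Fdps*, *Cyp1a2* and *Slc4a1* stayed uncalled in 16. In the rest each of these genes was called. The causes were not tested. Dim spots limit the 216 called probes not well above background in 1 dose or both.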
